A study of Mus musculus with 4 samples.

Results

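The genes described here are those of antigen presentation in the mouse prostate: the class I and class II molecules of the major histocompatibility complex (MHC, called H2 in mice) and the genes that supply, transport and load their peptides. They were taken by gene name from the scanner files, as every probe named H2-, B2m, Tap1, Tap2, Tapbp or Tapbpl, Cd74, Ciita, Psmb8, Psmb9 or Psmb10. The rule found 75 probes (111 spots) for 46 genes, of 41174 probes and 28090 gene names on the array. Of the 46 genes, 24 were class I genes, 10 were class II genes, 8 served peptide supply and loading, 2 were partners of class II (Cd74 and Ciita), and 2 carry H2 names by position but are no MHC molecules (H2-Ke2 and H2-Ke6). A symbol in the current RefSeq table was found through the target accession for 63 of the 75 probes and differed from the file's name for 1.

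Prostate RNA of 4 groups of male mice 8 weeks of age was hybridised to Agilent arrays in 1 colour (Cy3), with 1 array per group. C57BL/6 mice, the normal strain, received olive oil (C57BL/6 oil) or 600 mg/kg of γ-TmT, a tocopherol mixture rich in γ-tocopherol (C57BL/6 TmT). TRAMP mice received the same gavages (TRAMP oil and TRAMP TmT). TRAMP mice develop prostate tumours from a transgene, the SV40 early region, whose probasin promoter limits it mainly to epithelial cells of the prostate. All mice ate an AIN-76A diet, were fasted overnight before the gavage and were killed 12 h after it, and the labels give 3 mice per group without saying whether an array held 1 mouse or a pool. The H2 haplotype of the TRAMP mice is not given in the sources used here.

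Class I molecules pair a heavy chain (H2-K1 and H2-D1 are the classical ones in C57BL/6 mice) with B2m and show peptides from inside the cell to CD8 T cells. Those peptides are cut by the proteasome, whose inducible subunits are Psmb8, Psmb9 and Psmb10, carried into the endoplasmic reticulum by the transporter of Tap1 and Tap2, and loaded with the help of tapasin (Tapbp). Class II molecules, pairs such as H2-Aa with H2-Ab1, show peptides from lysosomes to CD4 T cells. They travel with the invariant chain Cd74, are loaded by H2-DM, and are held mostly by professional antigen-presenting cells. Interferon gamma induces both sets, class II through the co-activator Ciita.

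Values are log2 of the scanner software's processed signal minus log2 of the array's 75th percentile, so 0 is the signal at that percentile, and values are compared between arrays for 1 probe and never between probes. The 75th percentile ran from 71.3 on TRAMP TmT to 161 on C57BL/6 oil, and 63.9% to 74.1% of spots were well above background. A value after ± is the scanner software's spot error, which says nothing of the spread between mice. With 1 array per group no difference between 2 arrays has a test. A gene is given by its brightest probe unless a probe is named. Of the 46 genes, 32 were well above background on all 4 arrays, 3 on 1 to 3 arrays, and 11 had no probe above background on any array. In whole prostate, fewer cells of a type and less RNA per cell cannot be told apart.

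Promoters of class I and class II genes share a short module in which an X2 box, known to bind CREB-type factors, precedes a Y box, bound by NF-Y, at a fixed distance. The stretches below show it in class I genes and B2m first and in class II genes after them, because these 2 sets are what the values below compare. They are the RefSeq promoters of build GRCm38.p6, 5′ to 3′ on the gene's strand, with the letters TGANG and ATTGG in capitals. The window of 19 to 21 bases between them was chosen after reading these sequences.
H2-K1: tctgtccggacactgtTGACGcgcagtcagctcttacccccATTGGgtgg
H2-D1: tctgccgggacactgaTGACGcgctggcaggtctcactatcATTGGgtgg
H2-Q7: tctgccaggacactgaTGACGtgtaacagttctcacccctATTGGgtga
H2-M3: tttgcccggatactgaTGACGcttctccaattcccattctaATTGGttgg
B2m: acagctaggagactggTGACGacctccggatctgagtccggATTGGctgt
H2-Aa: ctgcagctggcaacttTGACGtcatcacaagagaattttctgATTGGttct
H2-Eb1: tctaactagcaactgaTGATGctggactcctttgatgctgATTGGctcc
H2-DMb1: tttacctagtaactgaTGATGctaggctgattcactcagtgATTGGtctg
H2-DMb2: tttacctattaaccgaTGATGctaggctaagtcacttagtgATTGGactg

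The H2-K1 stretch lay at chr17:34000355-34000404 (minus strand), that of H2-D1 at chr17:35262977-35263026 (plus), that of B2m at chr2:122147593-122147642 (plus) and that of H2-Aa at chr17:34287863-34287913 (minus). TGANG and ATTGG at this distance, searched on both strands of the 250 bases before each start, were found for 9 of the 34 member genes with a promoter in the table and in 0.846% of all 32851 promoters. The X2 letters printed above were TGACG in the class I genes, B2m and H2-Aa, and TGATG in H2-Eb1, H2-DMb1 and H2-DMb2. Upstream of this module, H2-K1 also held the enhancer A core GGGATTCCC, known to bind NF-κB and found in 0.301% of all promoters, and the interferon consensus core TTTCACTTC, found in 0.402%. Both cores, the X2 box and the Y box stand in capitals in the following stretch of H2-K1 (GRCm38.p6, chr17:34000355-34000467, minus strand).
H2-K1: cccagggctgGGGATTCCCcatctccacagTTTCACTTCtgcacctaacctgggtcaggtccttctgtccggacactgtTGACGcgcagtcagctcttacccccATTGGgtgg

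The enhancer A core was found in the promoters of 3 class I genes (H2-K1, H2-D1 and H2-Q7) and the interferon consensus core in those of 5 class I genes (the same 3, H2-M3 and H2-Q10), and neither in a class II promoter of the table. A match is a description of letters and not evidence that a factor bound there.

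Class I and class II genes were set side by side in the comparison of TRAMP with C57BL/6. After oil, the class I genes had a median difference of 0.25 (log2, TRAMP minus C57BL/6, 15 genes above background on both arrays, 10 of them above 0), and the class II genes one of -0.43 (7 genes, 2 above 0). After TmT, the class I median was 0.55 (11 of 15 above 0) and the class II median 1.00 (7 of 7 above 0). The class II median after TmT is the value of the brightest H2-Aa probe, whose second probe gave -0.72, and the median after oil is that of H2-Eb1, a spot with the limits given below. With the mean of all probes of a gene, the medians after TmT were 0.27 for class I and 0.20 for class II, with normexp background correction -0.28 and 0.03, and with normexp after leaving out spots of extreme local background 0.31 and 0.58. The 8 peptide supply and loading genes had medians of 0.56 after oil and 0.78 after TmT. Over all genes measured the medians were -0.07 and 0.01.

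Members were also counted at 2-fold. After oil, 5 of 33 members were at least 2-fold higher in TRAMP (H2-Bl, H2-M10.2, Psmb8, Psmb9 and Tapbp) and 0 at least 2-fold lower, where 7.74% of 18921 genes were that much higher and 7.84% that much lower. After TmT, 11 of 32 members were higher (H2-Bl, H2-D4, H2-Q8, H2-Aa, H2-Ab1, H2-DMb1, H2-DMb2, Cd74, Psmb8, Psmb10 and Tapbp) and 3 lower (H2-T22, H2-T24 and Tapbpl), where 8.45% of 17251 genes were higher and 6.09% lower. The share of members at least 2-fold higher was thus 15.2% after oil and 34.4% after TmT. These counts depended on how probes were summed up: with the mean of all probes of a gene, 3 members were higher after oil, and 6 were higher and 1 lower after TmT. Before the software's multiplicative detrending, 4 were higher and 3 lower after oil. With normexp background correction in place of the processed signal, 11 of the 14 differences after TmT changed sign, Psmb8 and Cd74 among them (-0.04 and -0.18), and with the spots of extreme local background left out first none of the 14 did. Centring on the median of each array gave 7 higher and 3 lower members after TmT, beside 1193 higher and 1358 lower of all genes, where the scaling used here gave 1457 and 1050.

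**Figure D1:**
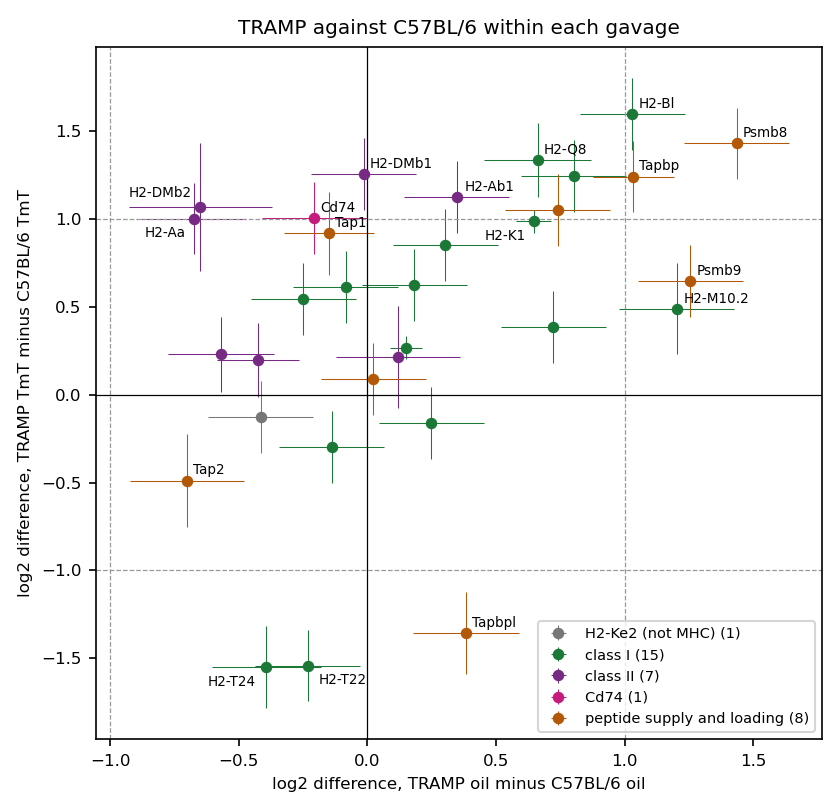
Log2 difference of TRAMP minus C57BL/6 after oil (x axis) and after TmT (y axis) for the 32 member genes above background on all 4 arrays, 1 point per gene (brightest probe), with the scanner software's spot error as bars and dashed lines at 2-fold. The 7 class II genes and Cd74 lie above 0 on the y axis while 5 of the 7 and Cd74 lie below 0 on the x axis, and Psmb8 and H2-Bl lie past 2-fold on both.

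H2-K1, a classical class I heavy chain, was higher in TRAMP than in C57BL/6 after each gavage by every one of its 4 probes. Its dimmest probe nevertheless read 2.57 on C57BL/6 oil and 2.41 on TRAMP TmT. Its brightest probe (chr17:34133055-34133114, mm9, minus strand), printed 10 times on each array, read 7.02 on C57BL/6 oil, 6.75 on C57BL/6 TmT, 7.67 on TRAMP oil and 7.74 on TRAMP TmT. The SD between its spots was 0.07, 0.09, 0.18 and 0.18 in that order, and the lowest TRAMP spot (7.33) was above the highest C57BL/6 spot (7.14). The difference between TRAMP and C57BL/6 was 0.65 ± 0.07 after oil and 0.99 ± 0.06 after TmT, and the other 3 probes ranged from 0.50 to 1.12 and from 0.72 to 1.19. These spots repeat the measurement of 1 RNA sample per group and are no replicates of mice. The probes named H2-K1 are partly alike: the brightest and one other had 49 of 57 overlapping bases in common.

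H2-D1, the other classical heavy chain, did not differ in the same way. It read 6.51 on C57BL/6 oil, 6.16 on C57BL/6 TmT, 6.26 on TRAMP oil and 6.71 on TRAMP TmT, so the TRAMP minus C57BL/6 difference was -0.25 ± 0.20 after oil and 0.55 ± 0.20 after TmT. Its next probe gave 0.17 ± 0.20 and 0.18 ± 0.20. H2-D4, a class I name of the same region, read 2.69, 2.47, 3.49 and 3.72 in that order of arrays, higher on both TRAMP arrays.

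The non-classical class I genes (H2-Q, H2-T, H2-M and H2-Bl), many of them less variable between strains and more restricted in expression than the classical ones, went in several directions. H2-Bl read 3.14 on C57BL/6 oil, 2.83 on C57BL/6 TmT, 4.17 on TRAMP oil and 4.42 on TRAMP TmT, a difference of 1.03 ± 0.20 (2.04-fold) after oil and 1.60 ± 0.20 (3.03-fold) after TmT. A dimmer probe of H2-Bl went the other way, with -0.89 ± 0.31 after oil. That probe read -2.37 on C57BL/6 TmT and was not well above background on TRAMP TmT, at least 2.24-fold lower there. H2-Q8 read -1.35, -1.47, -0.69 and -0.13 in the same order, 0.66 ± 0.21 higher in TRAMP after oil and 1.34 ± 0.21 after TmT. H2-M10.2, which belongs to a family known from vomeronasal neurons, was dim at -2.92, -2.73, -1.72 and -2.24, and it was 2.30-fold higher in TRAMP after oil and 1.40-fold after TmT.

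H2-Q7, a Qa-2 gene whose probe was printed 10 times, read 3.63 on C57BL/6 oil, 3.14 on C57BL/6 TmT, 3.78 on TRAMP oil and 3.41 on TRAMP TmT. Its TRAMP minus C57BL/6 differences, 0.15 ± 0.06 and 0.27 ± 0.06, were smaller than its TmT minus oil differences of -0.49 ± 0.06 in C57BL/6 and -0.37 ± 0.06 in TRAMP. H2-Q2 read 5.49, 4.79, 6.21 and 5.18 in that order, 0.72 ± 0.20 higher in TRAMP after oil and 0.38 ± 0.20 after TmT, and its other 2 probes were higher in TRAMP too. H2-Q1, H2-Q5, H2-T23 (Qa-1, a ligand of NK cell receptors) and H2-M3 (which shows formylated peptides) stayed within 0.30 of 0 after oil, and between -0.30 and 0.85 after TmT.

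As processed, H2-T22 and H2-T24 were lowest on TRAMP TmT. H2-T22 read 2.53 on C57BL/6 oil, 2.67 on C57BL/6 TmT, 2.30 on TRAMP oil and 1.13 on TRAMP TmT, and H2-T24 read -0.63, -0.53, -1.02 and -2.08 in that order. Their TRAMP minus C57BL/6 differences after TmT were -1.54 ± 0.20 and -1.55 ± 0.23. Other probes of these genes did not follow: the other 2 of H2-T22 gave -0.31 and 0.28, and the other of H2-T24 gave 0.94. The brightest probe of H2-T22 lay in an area of the TRAMP oil array where detrending had raised the signal 2.80-fold, while the TRAMP TmT array was not detrended. Before detrending, the TmT minus oil difference of H2-T22 in TRAMP was 0.30 in place of -1.17. The H2-T24 spot was raised 1.72-fold on TRAMP oil, and its TmT minus oil difference in TRAMP was -0.28 before detrending in place of -1.05.

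**Figure D2:**
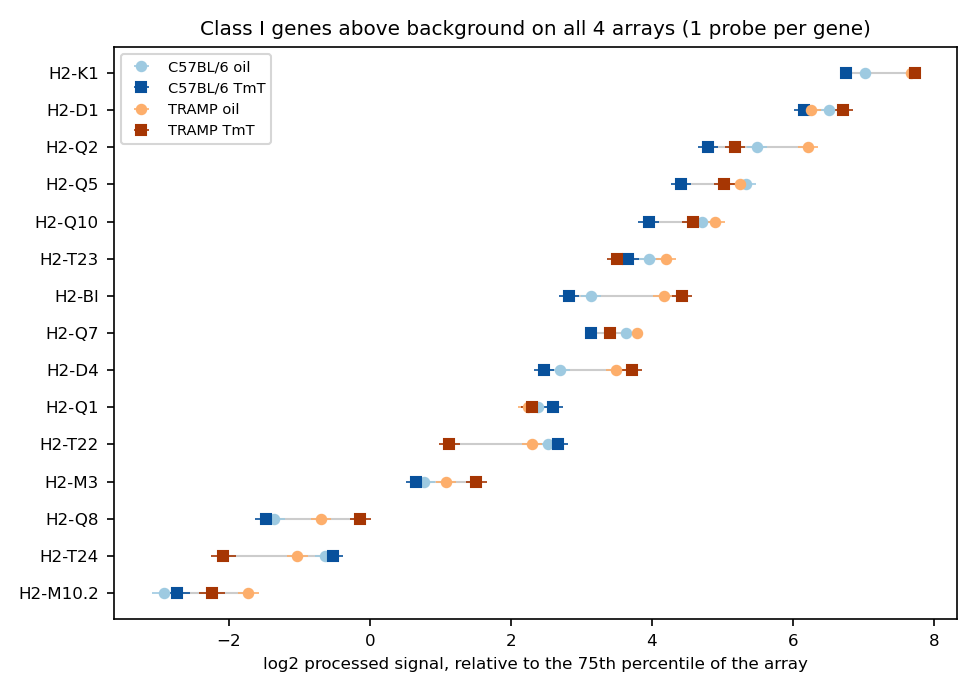
Level of the 15 class I genes above background on all 4 arrays (x axis: log2 processed signal relative to the 75th percentile of the array; 1 row per gene, brightest probe; bars: scanner software's spot error), ordered by mean level. For H2-K1, H2-Bl, H2-D4, H2-M3, H2-Q8 and H2-M10.2 both TRAMP values lie above both C57BL/6 values.

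Several class I probes cannot be given to 1 gene. The brightest probe of H2-Q10, a gene known for its secretion by liver, shared 35 of 35 overlapping bases with the probe of H2-Q5, and a probe of H2-Q2 shared 47 of 50 with one of H2-D1. The 4 probes of H2-Q10 above background on all arrays differed in direction: TRAMP minus C57BL/6 after oil was 0.18, 0.07, -1.13 and -1.53. Values of the H2-Q and H2-T genes are therefore uncertain as to which gene they measure. In all, 8 class I genes had no probe above background on any array (H2-M1, H2-M9, H2-M10.1, H2-M10.3, H2-M10.4, H2-M10.5, H2-M10.6 and H2-M11). H2-T3 was above it on C57BL/6 oil alone, with a TRAMP minus C57BL/6 difference after oil of -0.31 ± 0.43, within its spot error. Of the 2 genes that are no MHC molecules, H2-Ke2 (Pfdn6, a prefoldin subunit) differed by -0.41 ± 0.20 after oil and -0.13 ± 0.20 after TmT. H2-Ke6 was above background on the C57BL/6 arrays alone. Its difference after oil was -0.44 ± 0.30, and after TmT it was at least 1.37-fold brighter in C57BL/6.

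All 3 inducible proteasome subunits were higher in TRAMP after both gavages. Psmb8 (chr17:34337771-34337830, mm9, plus strand) read 1.19 on C57BL/6 oil, 1.16 on C57BL/6 TmT, 2.62 on TRAMP oil and 2.59 on TRAMP TmT. The difference was 1.43 ± 0.20 after each gavage, or 2.70-fold, and its second probe gave 1.25 ± 0.20 and 1.07 ± 0.21. Psmb9 read 2.57, 2.79, 3.83 and 3.44 in that order, a difference of 1.26 ± 0.20 after oil and 0.65 ± 0.20 after TmT. Psmb10 read 1.61, 1.87, 2.35 and 2.92, a difference of 0.74 ± 0.20 and 1.05 ± 0.20. For each of the 3 genes the lower TRAMP value was above the higher C57BL/6 value.

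Of the constitutive subunits that these replace, Psmb5 and Psmb6 were measured. That of Psmb10, Psmb7, was searched for by name and gave no value. Psmb5, which Psmb8 replaces, differed by -0.11 ± 0.20 after oil and -0.17 ± 0.20 after TmT. Psmb6, which Psmb9 replaces, differed by -0.03 ± 0.20 and -0.17 ± 0.20. The proteasome activator subunits Psme1 and Psme2, also known as interferon-inducible, were higher in TRAMP by 0.64 and 0.77 after oil, and by 1.01 and 0.12 after TmT. Of the 5 genes measured from this list (with Psme3), 0 were at least 2-fold different after oil and 1, Psme1, after TmT.

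Psmb9 and Tap1 are transcribed away from each other from a shared stretch of 225 bases (GRCm38.p6, chr17:34187331-34187555). It is shown on the Tap1 strand, from the base next to the start of Psmb9 to the base before the start of Tap1, because the 2 genes share it and read differently. Capitals mark its 1 CCAAT box and 1 GC box (GGGCGG, here CCGCCC), searched on both strands and found in 33.8% and 32.7% of all promoters.
Psmb9-Tap1: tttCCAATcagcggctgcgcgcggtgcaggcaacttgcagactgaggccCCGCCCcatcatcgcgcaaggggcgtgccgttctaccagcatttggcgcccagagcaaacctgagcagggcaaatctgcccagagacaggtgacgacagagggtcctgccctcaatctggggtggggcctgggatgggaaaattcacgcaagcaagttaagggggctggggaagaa

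Tap1 read -1.19 on C57BL/6 oil, -2.37 on C57BL/6 TmT, -1.34 on TRAMP oil and -1.45 on TRAMP TmT. As processed, it stood low on the C57BL/6 TmT array, so TRAMP minus C57BL/6 was -0.15 ± 0.18 after oil and 0.92 ± 0.24 after TmT. Tap2 was lower in TRAMP, by -0.70 ± 0.22 and -0.49 ± 0.26. The loading factor Tapbp read 2.85, 2.67, 3.89 and 3.91 in that order of arrays, a difference of 1.03 ± 0.16 and 1.24 ± 0.20, while its second probe gave 0.34 ± 0.20 and 0.17 ± 0.21. Tapbpl, a tapasin relative that edits the peptides of class I, read -0.81, -0.73, -0.42 and -2.09, low on TRAMP TmT alone.

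The values of Tap1 and Tapbp after oil depended on the detrending. On TRAMP oil, 4 of the 32 members (Tap1, Tapbp, H2-T22 and H2-Eb1) lay where detrending had raised the signal by over 1 (log2), as for 3.54% of the spots well above background there, by 1.52, 1.49, 1.49 and 1.34. On the other 3 arrays no member was raised by that much. Before detrending, TRAMP minus C57BL/6 after oil was -1.01 for Tap1 and 0.18 for Tapbp. After TmT it was 1.13 and 1.44. Psmb8 was nearly the same before detrending, at 1.54 after oil and 1.44 after TmT.

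B2m, the light chain of class I, showed no genotype difference beyond the error of its brightest probe. That probe read 8.20 on C57BL/6 oil, 7.90 on C57BL/6 TmT, 8.23 on TRAMP oil and 7.99 on TRAMP TmT, a difference of 0.02 ± 0.20 and 0.09 ± 0.20. A second probe, printed 10 times, read 5.18, 4.93, 5.04 and 5.12, and its spots overlapped between all 4 arrays. Its dimmest probe differed by -0.85 ± 0.17 after oil and 0.63 ± 0.20 after TmT.

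**Figure D3:**
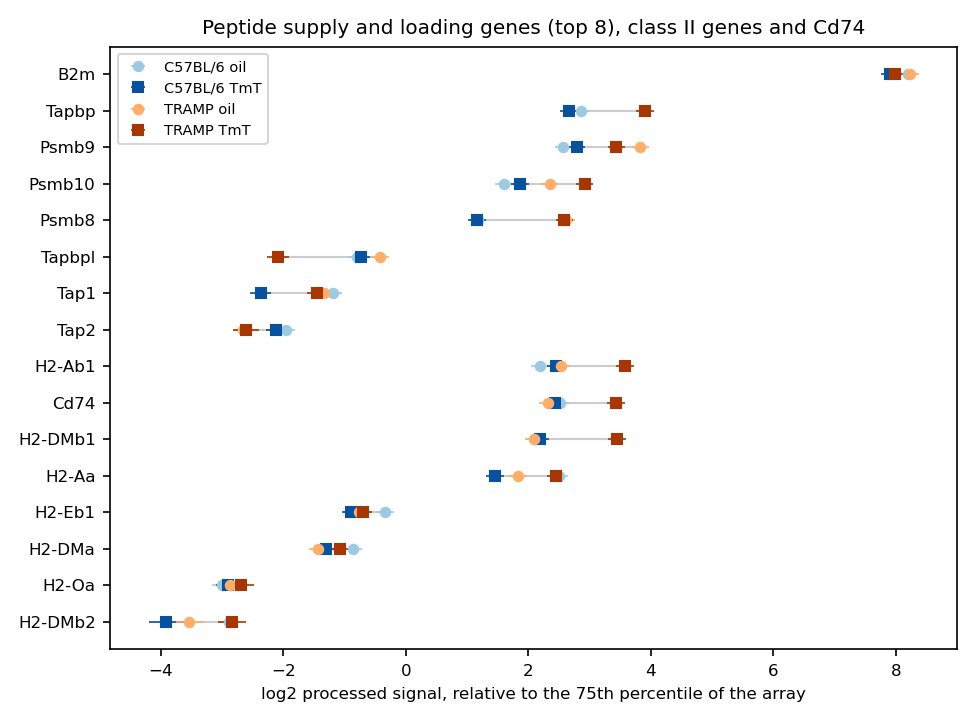
Level of the 8 peptide supply and loading genes (upper rows), the 7 measured class II genes and Cd74 (lower rows) on each array (x axis: log2 processed signal relative to the 75th percentile of the array; brightest probe; bars: scanner software's spot error). Psmb8, Psmb9, Psmb10 and Tapbp have both TRAMP values on the right, whereas H2-Ab1, Cd74 and H2-DMb1 have the TRAMP TmT value alone on the right.

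The class II genes and Cd74 were highest on the TRAMP TmT array for part of the set. H2-DMb1, a chain of the H2-DM peptide exchanger, read 2.11 on C57BL/6 oil, 2.19 on C57BL/6 TmT, 2.09 on TRAMP oil and 3.45 on TRAMP TmT. The first 3 values lay close together and the TRAMP TmT value stood apart. Cd74 read 2.52, 2.43, 2.32 and 3.44 in that order, so TRAMP TmT exceeded C57BL/6 TmT by 1.01 ± 0.20 and TRAMP oil by 1.12 ± 0.20. H2-Ab1, the beta chain of I-A, read 2.18, 2.46, 2.53 and 3.58, with TRAMP minus C57BL/6 at 0.35 ± 0.20 after oil and 1.13 ± 0.20 after TmT.

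In H2-Aa and H2-DMb2 the C57BL/6 TmT array was low, in place of the TRAMP TmT array high. H2-Aa, the alpha chain of I-A, read 2.51 on C57BL/6 oil, 1.45 on C57BL/6 TmT, 1.83 on TRAMP oil and 2.46 on TRAMP TmT. H2-DMb2, the second beta chain of H2-DM, was dim at -2.89, -3.91, -3.54 and -2.84. For both genes C57BL/6 oil and TRAMP TmT read nearly alike. H2-DMa, the alpha chain of H2-DM, stayed between -1.43 and -0.86, and H2-Oa, a chain of the H2-DM inhibitor H2-O, differed by 0.12 to 0.21 between TRAMP and C57BL/6.

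H2-Eb1, the beta chain of I-E, read -0.34, -0.90, -0.77 and -0.70 in the order C57BL/6 oil, C57BL/6 TmT, TRAMP oil and TRAMP TmT. Its spot on C57BL/6 TmT was 1 of 15 there whose local background exceeded 10 times the median of the array. Its spot on TRAMP oil was raised by detrending, as given above. Neither value can be taken at its spot error. H2-Ea, the alpha chain of I-E, which C57BL/6 mice are known not to express, was not well above background on any array, nor were H2-Eb2 and H2-Ob. Ciita was at the edge of detection, at -4.31, -3.77, -4.49 and -3.94, the last not well above background.

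The direction of the class II difference depended on which probe stood for a gene. For H2-Aa, the brightest probe (starting at base 227 of the target) differed between TRAMP and C57BL/6 by -0.67 ± 0.20 after oil and 1.00 ± 0.20 after TmT, and the second (starting at base 454) by -0.38 ± 0.20 and -0.72 ± 0.21. For H2-Ab1, 3 probes gave 1.13, 0.81 and 0.67 after TmT, and the fourth, printed 10 times, gave -0.59 ± 0.07. That probe read 0.08 on C57BL/6 oil, -0.66 on C57BL/6 TmT, -1.06 on TRAMP oil and -1.25 on TRAMP TmT, with an SD between spots of 0.18, 0.19, 0.26 and 0.19. No C57BL/6 oil spot of it was as low as any spot of the other 3 arrays. A second probe of H2-DMb1, dim and not above background on TRAMP TmT, gave -0.97 ± 0.36 after oil.

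The probes of H2-Aa and H2-Ab1, without the brightest of H2-Ab1 (1.13 after TmT), are shown 5′ to 3′ as the scanner files give them. All are of genes on chromosome 17, and within each gene the signs after TmT differed. The first pair of H2-Ab1 overlaps by 31 bases and differs at 2 of them (T5A and T20A, counted from the 5′ end of the first probe, the first probe's base first), which stand in capitals.
H2-Ab1 (0.67 after TmT): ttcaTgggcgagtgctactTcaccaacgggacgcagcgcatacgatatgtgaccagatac
H2-Ab1 (0.81 after TmT): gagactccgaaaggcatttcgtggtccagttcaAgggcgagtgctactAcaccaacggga
H2-Ab1 (-0.59 after TmT): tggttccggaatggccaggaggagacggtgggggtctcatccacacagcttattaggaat
H2-Aa (1.00 after TmT): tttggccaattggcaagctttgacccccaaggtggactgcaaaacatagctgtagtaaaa
H2-Aa (-0.72 after TmT): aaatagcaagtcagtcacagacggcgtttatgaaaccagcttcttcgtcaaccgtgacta

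The second of these has no place on mm9 in the file. The first lay at chr17:34401723-34401782 (plus strand), the third at chr17:34404388-34404447 (plus), the fourth at chr17:34421285-34421344 (minus) and the last at chr17:34420627-34420686 (minus), all on mm9. Disagreement of this kind was common on these arrays. After TmT, 6 of 11 members with several measured probes had probes whose differences were at least 1 (log2) apart, as had 31.9% of 5419 such genes in all. After oil it was 3 of 14 members, and 26.0% of 6087 genes.

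**Figure D4:**
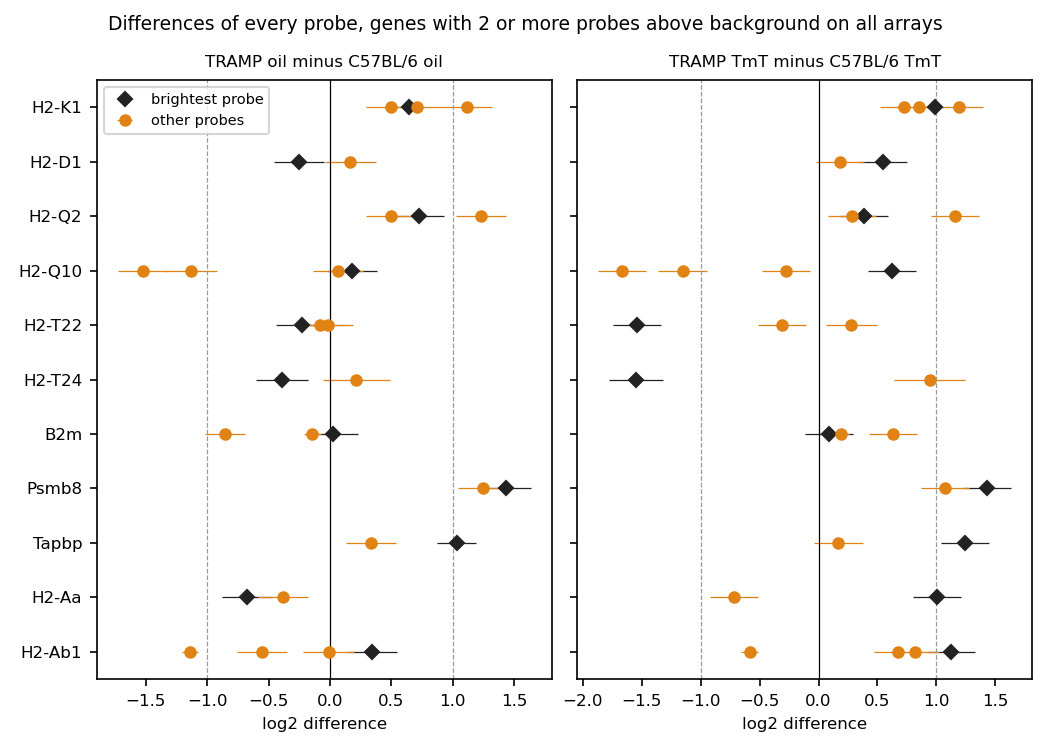
Log2 difference of TRAMP minus C57BL/6 after oil (left) and after TmT (right) for every probe above background on all 4 arrays, for the member genes with 2 or more such probes (diamond: brightest probe; circles: other probes; bars: scanner software's spot error; dashed lines: 2-fold). All 4 probes of H2-K1 and both of Psmb8 lie on the right, while H2-Q10, H2-T22, H2-T24, H2-Aa and H2-Ab1 have probes on both sides of 0 after TmT.

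**Figure D5:**
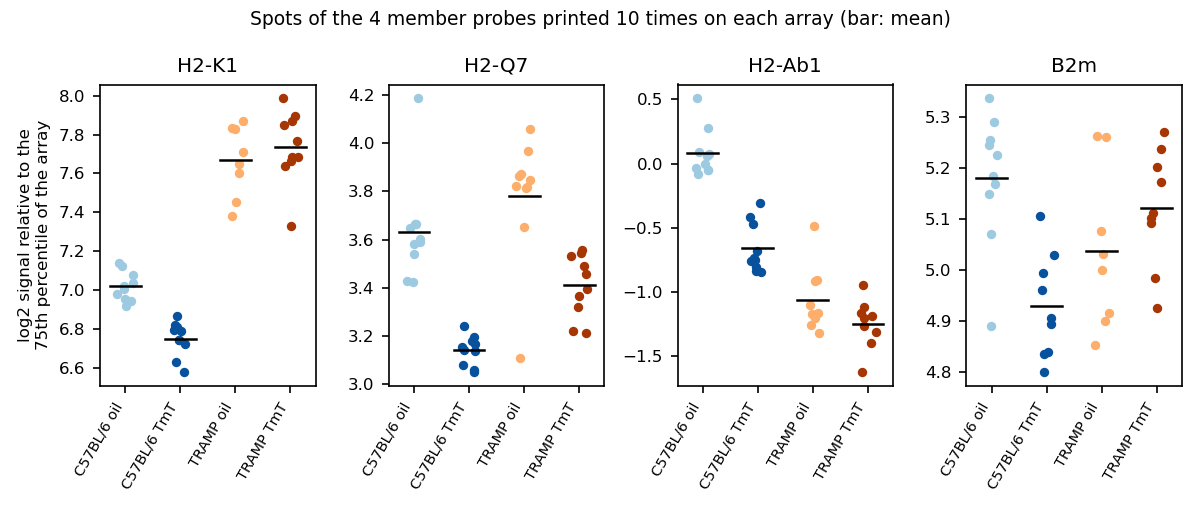
Every used spot of the 4 member probes printed 10 times, by array (y axis: log2 signal relative to the 75th percentile of the array, each panel with its own range; bar: mean). The H2-K1 spots of both TRAMP arrays lie above those of both C57BL/6 arrays, the H2-Ab1 spots of C57BL/6 oil lie above those of the TRAMP arrays, and the B2m spots overlap.

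For class II against class I, the difference of the medians was -0.67 after oil and 0.46 after TmT in the comparison of TRAMP with C57BL/6. With the mean of all probes of a gene the value after TmT was -0.07, and without the filter on dim probes it was -0.12. With every probe counted it was 0.19, so its sign after TmT depended on the summary of probes and on the filter.

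TmT was compared with oil within each strain. In C57BL/6, 0 of 34 members were at least 2-fold higher after TmT and 3 were lower (H2-Aa by -1.05 ± 0.20, H2-DMb2 by -1.02 ± 0.33 and Tap1 by -1.18 ± 0.23), where 3.12% of 18665 genes were higher and 2.63% lower. The class I genes had a median of -0.27 (4 of 15 above 0), with H2-Q5 at -0.91 ± 0.20 and H2-Q10 at -0.76 ± 0.20, and the class II genes one of -0.45 (3 of 7 above 0). The peptide supply and loading genes had a median of -0.09. Before detrending, 3 members were lower, beside 481 of all genes, with Tap1 at -0.74 and H2-Q5 at -1.05. Psmb8 differed by -0.03 ± 0.20.

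In TRAMP, 3 of 32 members were at least 2-fold higher after TmT (H2-DMb1 by 1.36 ± 0.20, Cd74 by 1.12 ± 0.20 and H2-Ab1 by 1.05 ± 0.20) and 4 lower (Tapbpl by -1.67 ± 0.23, H2-T22 by -1.17 ± 0.20, H2-T24 by -1.05 ± 0.23 and H2-Q2 by -1.04 ± 0.20), where 8.66% of 17465 genes were higher and 4.86% lower. The class II genes had a median of 0.62 (7 of 7 above 0) and the class I genes one of -0.22 (7 of 15 above 0). Psmb8 differed by -0.03 ± 0.20 here too. With the mean of all probes of a gene, 1 member was higher and 1 lower. Before detrending, 5 members were higher and 1 lower (Tapbpl), beside 1687 and 807 of all genes. The 5 were H2-DMb1, Cd74, Tapbp at 1.499, Tap1 at 1.403 and H2-Eb1 at 1.391. As processed, Tapbp, Tap1 and H2-Eb1 stood at 0.02, -0.11 and 0.06. Before detrending, H2-T22 stood at 0.30, H2-T24 at -0.28, H2-Q2 at -0.84 and H2-Ab1 at 0.63. The comparisons of TmT with oil and of TRAMP with C57BL/6 share arrays, so the high class II values of TRAMP TmT enter 2 of them.

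A fit of genotype plus treatment over all 4 arrays (limma, with the 1 residual degree of freedom that is the interaction, and Benjamini-Hochberg adjustment over 19925 genes) called 0 of 34 members for genotype at an adjusted p under 0.05, where it called 0.136% of all genes (27 genes). The member with the lowest value was Psmb8, with a fitted difference of 1.43 ± 0.32 (SE) and an adjusted p of 0.156 by limma. At an unadjusted p under 0.05, 7 of 34 members were higher in TRAMP (Psmb8, H2-Bl, Tapbp, H2-D4, H2-Q8, Psmb9 and Psmb10) and 0 lower. Over all genes, 7.88% were higher and 15.1% differed in either direction at that p. None of the 7 was a class II gene, and all 7 kept an adjusted p between 0.156 and 0.299.

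For treatment the fit called 0 members and 0% of all genes. At an unadjusted p under 0.05, 1 member differed, H2-Q2, with a fitted difference of -0.87 ± 0.33 (SE) and an adjusted p of 0.778 by limma, where 6.26% of all genes differed and 2.85% were higher. The fit takes any difference of the TmT effect between the strains as error. For Cd74 the fitted genotype difference was 0.40 ± 0.41 (SE).

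Other genes of the pathway were taken from lists chosen with earlier results of these data known. The list counts here and those of cell type markers stand beside shares over all genes of 7.74% higher and 7.84% lower after oil, and 8.45% higher and 6.09% lower after TmT. Of the 12 measured genes of the interferon gamma axis, 3 were at least 2-fold higher in TRAMP after oil and 4 after TmT, 0 were lower, and the fit called 0. Indo, which breaks down tryptophan and is known today as Ido1, read -2.21 on C57BL/6 oil, -2.25 on C57BL/6 TmT, 0.22 on TRAMP oil and 1.82 on TRAMP TmT. Cxcl9, a chemokine for T cells, was higher in TRAMP by 1.67 ± 0.25 after oil and 1.64 ± 0.28 after TmT. The transcription factor Irf1 was higher by 0.30 ± 0.20 after oil and by 1.16 ± 0.20 after TmT. Ifng itself was not well above background on any array.

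Of the 11 measured class II regulators and lysosomal genes, 1 was at least 2-fold higher in TRAMP after oil (Nfyb, a subunit of NF-Y, by 1.68 ± 0.20) and 1 after TmT (Nfya by 1.09 ± 0.21), and 0 were lower. The class II protease Ctss differed by 0.13 ± 0.20 and -0.30 ± 0.20, and Ifi30, which reduces antigens in lysosomes, by -0.31 ± 0.20 and -0.44 ± 0.20. The 4 genes of class I loading and trimming (Calr, Canx, Erap1 and Pdia3) had none at 2-fold in either comparison. Of 6 measured class I-like genes outside the H2 region, Azgp1 was lower in TRAMP by -1.13 ± 0.20 and -1.08 ± 0.20, and Cd1d1 was higher after oil alone, by 1.74 ± 0.21. Of the 7 co-stimulatory genes, 4 were measured after oil and 3 after TmT. Icosl alone of these passed 2-fold, lower by -1.93 ± 0.22 after oil and higher by 1.74 ± 0.20 after TmT. Cd28 was above background on both C57BL/6 arrays and on neither TRAMP array, Cd86 on all arrays but TRAMP TmT, and Cd40 on none.

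Markers of cells that carry class II varied among themselves. The leukocyte marker Ptprc read 0.81 on C57BL/6 oil, 0.18 on C57BL/6 TmT, 0.54 on TRAMP oil and -0.15 on TRAMP TmT, lowest where H2-DMb1 and Cd74 were highest. Of 10 macrophage markers, 0 were 2-fold different after oil and 1 was higher after TmT (C1qc by 1.23 ± 0.20). C1qc read 1.56, 0.63, 1.01 and 1.86 in that order of arrays, lowest on C57BL/6 TmT, whereas C1qb (-0.07, 0.31, -0.40 and 0.01) and Csf1r (-0.57, -0.41, -0.97 and -1.34) were highest there. The list's summed level on the linear scale ran from 13.5 to 18.4 times the 75th percentile. Of 7 dendritic cell markers on the array, 6 were above background on C57BL/6 oil and 3 on TRAMP TmT, and their summed level ran from 2.67 to 3.49. The lowest value well above background was -4.84 on C57BL/6 oil and -3.53 on TRAMP TmT, so these 2 counts are not comparable. Batf3, Clec9a and Flt3, the markers above background on the first array only, read -4.08, -3.78 and -3.28 there. Of the 7 B cell markers, 4 were measured in each comparison of TRAMP with C57BL/6, with 0 at 2-fold, and the summed level of the list was 2.80, 1.69, 1.54 and 2.55 in the same order of arrays. Among T and NK cell markers, 0 of 8 measured were 2-fold different after oil. After TmT, 2 of 6 measured were at least 2-fold higher in TRAMP (Cd3e by 1.05 and Klrb1c by 1.03) and 0 were lower. The other measured ones were Cd3d at 0.67, Cd4 at -0.06, Cd3g at -0.20 and Cd8b1 at -0.53.

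Markers of other cells differed between arrays by more. Of the adipocyte markers, 6 of 6 measured were at least 2-fold higher on TRAMP oil than on C57BL/6 oil, and their summed level was 57.5 there against 7.52 to 13.2 on the other arrays. Markers of luminal prostate epithelium were lower in TRAMP, 3 of 7 at 2-fold after oil and 4 of 7 after TmT, among them Pbsn, the gene of probasin, by -2.95 and -2.04. Of 3 measured plasma cell markers, 1 was at least 2-fold higher in TRAMP after each gavage (Igj, the joining chain of antibodies, by 2.21 and 3.71) and 0 were lower, with Sdc1 at -0.54 and 0.59 and Prdm1 at 0.75 and -0.69. The part of these cell types in the differences of the MHC genes was not tested.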

How the data were processed

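Prostate RNA was measured on 4 Agilent 1-colour arrays, 1 per group. Per the file headers, the deposited intensity values are Agilent Feature Extraction 10.2.1.3 processed signals, background-subtracted and, on all arrays but TRAMP TmT, multiplicatively detrended. From them, log2 signal minus log2 of each array's 75th percentile was computed. Control and outlier spots were left out, spots of a probe averaged, and the brightest probe taken for a gene. Differences between 2 arrays were counted at 2-fold among genes well above background on both, with no test. The additive fit (limma 3.58.1, R 4.3.3) used genes above background on at least 2 arrays and was tested on simulated data. Every probe that the name rule selected was accounted for. The members and all gene lists were chosen with earlier results of these data known. Background correction, scaling, the filter and the summary of probes were varied. The number of arrays limits the precision, and p-values rest on the spread between these 4 arrays. Some items are not reported here.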

Additional observations from a re-analysis of the deposited data

Results flagged for a closer look

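In 2 class II genes the arrays moved in opposite directions. For H2-Aa, TmT minus oil was -1.05 in C57BL/6 and 0.62 in TRAMP, a gap of 1.68 (log2), and TRAMP minus C57BL/6 was correspondingly -0.67 after oil and 1.00 after TmT, the same gap of 1.68. For H2-DMb2, TmT minus oil was -1.02 in C57BL/6 and 0.69 in TRAMP, a gap of 1.72, and TRAMP minus C57BL/6 was -0.65 after oil and 1.07 after TmT, again a gap of 1.72. With 1 array per group these differences were not tested. The second probe of H2-Aa did not show the pattern, with TmT minus oil at -0.58 in C57BL/6 and -0.92 in TRAMP.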

How the results depend on the processing

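The count of members at least 2-fold different between TRAMP and C57BL/6 after oil was 5, and it was 0 at 3-fold, 3 with the mean of all probes of a gene and 11 with every probe counted. After TmT it was 14, and it was 1 at 3-fold, 6 with normexp background correction, 4 with normexp after leaving out spots of extreme local background (chosen after seeing the data) and 7 with the mean of probes. For TmT against oil in C57BL/6 it was 3, and it was 0 at 3-fold and 27 with normexp, where 6060 of 18665 genes were higher and 4647 lower. In TRAMP it was 7, and it was 1 at 3-fold, 26 with normexp (4754 of 17465 genes higher and 4707 lower), 2 with the cleaned normexp and 2 with the mean of probes. The class II minus class I median after oil, -0.67, was -0.37 with normexp, -0.33 with the cleaned normexp and -0.21 without the filter on dim probes. After TmT, 0.46 became -0.12 without the filter, -0.072 with the mean of probes and 0.19 with every probe counted. For TmT against oil in C57BL/6, -0.18 became 0.11 before detrending, 2.02 with normexp, 0.39 with the cleaned normexp and 0.027 without the filter. In TRAMP, 0.84 became 3.95 with normexp, 0.34 without the filter and 0.43 with the mean of probes. The additive fit, which called 0 members, called 32 for treatment with normexp, and with the cleaned normexp 4 for genotype and 2 for treatment. Over all genes its 27 genotype calls became 278 with genes above background on all 4 arrays, 76 with median centring, 39 without the filter, 1389 with the cleaned normexp and 0 before detrending, with normexp, with quantile normalization, with the mean of probes and with every probe counted. Its 0 treatment calls became 14808 with normexp and 351 with the cleaned normexp.

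With normexp, single differences changed sign. For TRAMP minus C57BL/6 after TmT they became -0.28 for H2-Bl, -0.20 for H2-D4, 0.018 for H2-T24, -0.071 for H2-Aa, -0.26 for H2-Ab1, -0.16 for H2-DMb1, -0.18 for Cd74, -0.13 for Psmb10, -0.043 for Psmb8, -0.19 for Tapbp and 0.021 for Tapbpl. TmT against oil in C57BL/6 became 1.42 for H2-DMb2 and 1.04 for Tap1. TmT against oil in TRAMP became 0.98 for H2-T24, -2.49 for H2-Ab1, -1.94 for H2-DMb1, -1.82 for Cd74 and 0.61 for Tapbpl. For H2-T22 in TRAMP it became 0.30 before detrending and 0.092 with the cleaned normexp, which gave 0.22 for H2-T24. On C57BL/6 TmT 15 spots and on TRAMP TmT 9 spots had a local background over 10 times the array's median. The causes of these changes were not tested. Quantile normalization, median centring and the stricter filter changed no sign of the class comparison and no total member count by over 1.5 times, but with median centring the members higher after TmT went from 11 to 7. Leaving out a replicate could not be run with 1 array per group. No paired analysis was possible because each group has 1 array.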
